A study of Mus musculus with 6 samples.

Results

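The last 5 Mb of each of mouse chromosomes 1 to 19, the stretch next to the telomere of the long arm, was described as a landscape of CTCF binding. CTCF, a DNA-binding protein with zinc fingers, anchors chromatin loops together with cohesin. Peaks of the 6 deposited lists were merged into regions where they overlapped by at least 1 bp, the largest end coordinate in any list was taken as the end of a chromosome, and a region belonged to the telomere-proximal set when it started within 5 Mb of that end. This gave 4224 telomere-proximal regions of 90494 regions on these chromosomes, and 86270 regions in the rest. The choice used position only and no signal. Just inside the limit lay a region of chromosome 9 from 119261411 to 119264592, called in 1 list, and just outside it a region of chromosome 15 from 98961585 to 98964305, also called in 1 list.

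The libraries came from regulatory T cells of the mouse thymus, 3 from Cgas knockout animals (Cgas_KO) and 3 from wild-type animals (WT), and were made by CUT&RUN, where a nuclease tethered by an antibody against CTCF cuts out the DNA around it for sequencing. The labels give no strain, age or allele, and do not say whether replicates came from separate animals. The p-values therefore speak of the spread between these 6 libraries, and that spread may be technical. The series asks how CTCF binding differs between the genotypes. The lists held 27207 to 31796 peaks, and read depth is unknown because they give signal inside peaks only. The longest list, that of Cgas_KO replicate 3, also had the lowest median width. Positions are in mm39. With no genome or annotation of that build used here, neither the sequence at the regions nor marker genes of the cell type were analysed.

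Mouse chromosomes carry the centromere at one end, so the end with the highest coordinates is the telomere of the long arm. Telomeres are repeats capped by the shelterin complex, and the stretches before them often hold duplicated sequence and multi-copy genes. In human cells CTCF is known to bind next to telomeres, where it helps transcription of the telomeric repeat RNA. cGAS is an enzyme that senses DNA in the cytosol and starts the STING pathway, and in the nucleus it is held on nucleosomes.

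CTCF peaks were denser near the telomere than elsewhere on the same chromosomes in all 6 libraries and in both genotypes. In the Cgas_KO libraries there were 15.6, 14.8 and 16.8 peaks per Mb in the last 5 Mb and 11.7, 11.1 and 12.5 in the rest. In the WT libraries there were 14.1, 14.9 and 14.2 peaks per Mb in the last 5 Mb and 10.8, 11.4 and 10.7 in the rest. The lowest telomere-proximal density of any library thus lay above the highest density of the rest. The ratio was 1.32 ± 0.0177 over the 6 libraries (SD, n = 6; log2 ratio 0.40). A two-sided exact sign-flip permutation test over the libraries gave p = 0.0313, the smallest it can give with 6, and 0.0625 after Benjamini-Hochberg adjustment over the 4 planned measures. The libraries share 1 genome, so this test speaks of the libraries and not of chromosome ends in general. The share of sequence covered by peaks was also higher near the telomere, at 5.19% ± 0.496 against 3.97% ± 0.420 in Cgas_KO and 5.22% ± 0.131 against 4.10% ± 0.117 in WT (SD, n = 3 each).

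**Figure D1:**
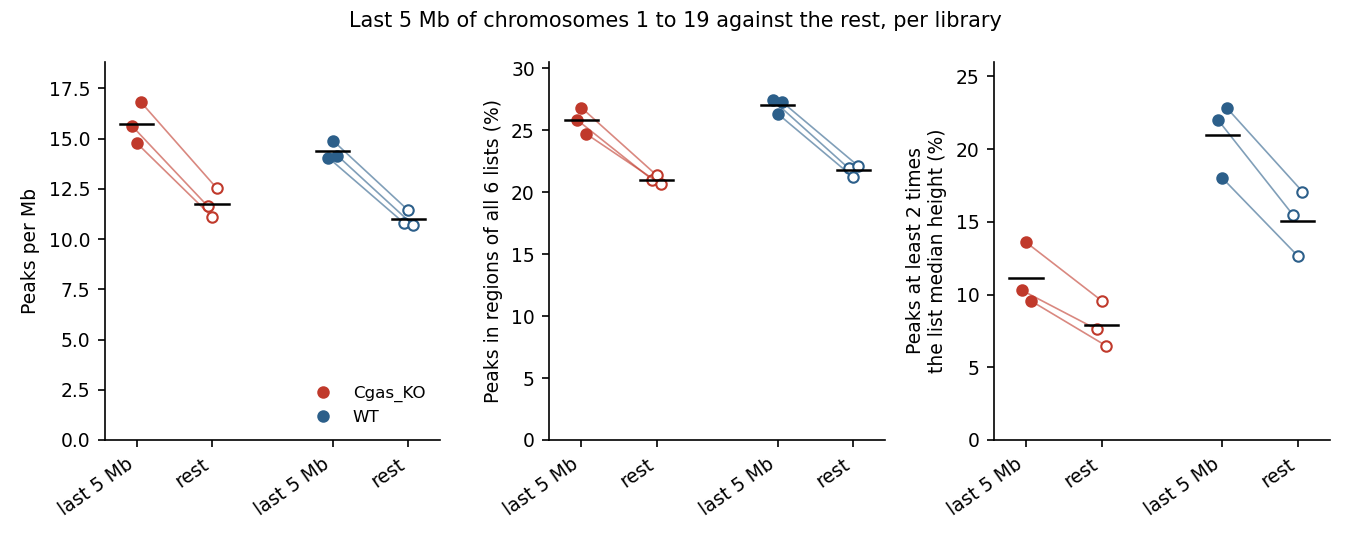
Values per library in the last 5 Mb (filled points) and in the rest of chromosomes 1 to 19 (open points) for Cgas_KO (red) and WT (blue). The panels show peaks per Mb, the percent of peaks that lie in a region called in every list, and the percent of peaks with a height of 2 or more list medians. Lines join the values of 1 library and bars are means of 3. All 6 libraries are higher in the last 5 Mb in each panel.

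The density was uneven over the 19 chromosomes. The last 5 Mb was denser than the rest of its chromosome in all 6 libraries on 12 chromosomes, less dense in all 6 on 3, and mixed on 4. It was the densest 5 Mb window of its chromosome on 2 (chromosomes 9 and 16) and among the 5 densest on 9. Chromosome 15 had the highest mean ratio, 2.41 ± 0.283 in Cgas_KO and 2.26 ± 0.0829 in WT (SD, n = 3 each), with 160, 124 and 138 peaks in Cgas_KO and 124, 126 and 115 in WT. Chromosome 9 followed at 1.86 ± 0.0956 in Cgas_KO and 2.02 ± 0.112 in WT, and chromosome 10 at 1.92 ± 0.0360 in Cgas_KO and 1.74 ± 0.0361 in WT (SD, n = 3 each). Chromosome 11 had the highest absolute density, 29.6 peaks per Mb on average, but its rest was dense too, at 16.8 (named after its values were seen).

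At the low end stood chromosomes 17, 18 and 3. Chromosome 17 had 15, 17 and 30 peaks in its last 5 Mb in Cgas_KO and 16, 13 and 21 in WT, a density ratio of 0.283 ± 0.0964 in Cgas_KO and 0.246 ± 0.0636 in WT (SD, n = 3 each), and this was the least dense of its 18 full windows. The ratio of chromosome 18 was 0.515 ± 0.0760 in Cgas_KO and 0.453 ± 0.119 in WT, and that of chromosome 3 was 0.586 ± 0.119 in Cgas_KO and 0.544 ± 0.0292 in WT (SD, n = 3 each). On these 3 chromosomes no library reached a ratio of 1. Over all 19 chromosomes weighted equally, the mean log2 ratio was 0.20, and without chromosomes 9, 11 and 15 the pooled one was 0.23, both lower than the 0.40 above and both above 0 in all 6 libraries. These 2 weightings were chosen after the values were seen.

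**Figure D2:**
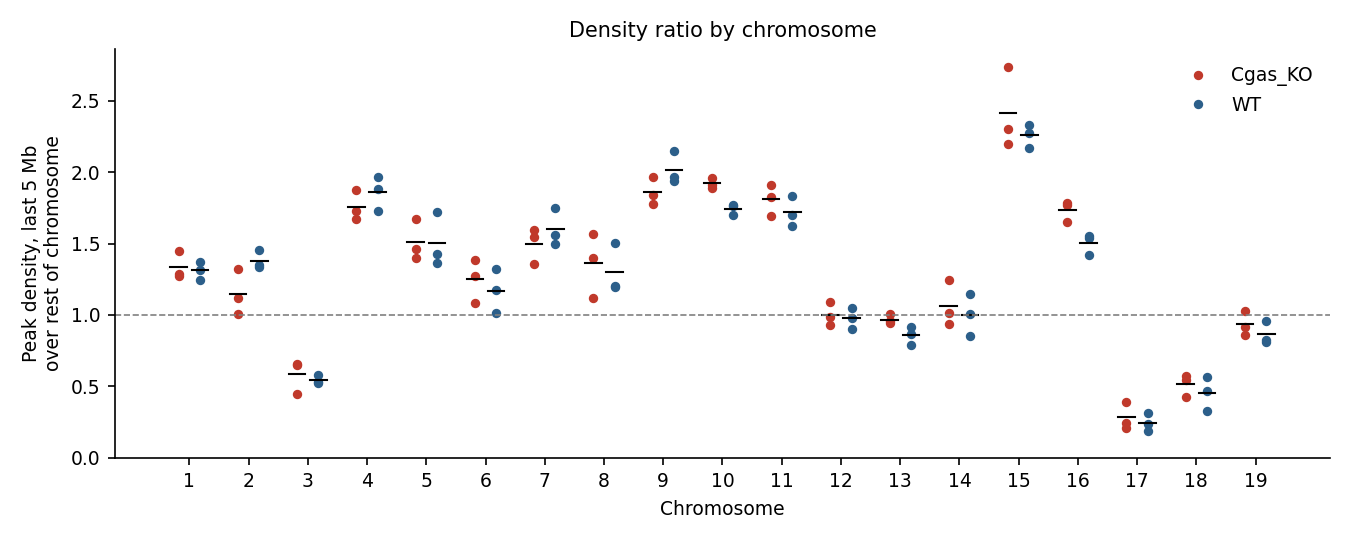
Peak density of the last 5 Mb over that of the rest of the same chromosome, for each of chromosomes 1 to 19, with 3 Cgas_KO libraries (red) left of 3 WT libraries (blue) and bars at the means. The dashed line marks a ratio of 1. Chromosome 15 stands above 2 in all libraries and chromosome 17 stays below 0.4.

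Which genes lie under these regions was not analysed here, but gene order in RefSeq's GRCm38.p6, another build, gives the neighbourhood. Among the last protein-coding genes of chromosome 15 are Itga5, an integrin subunit that binds fibronectin, and Nckap1l, a blood-cell regulator of the actin cytoskeleton. Gtsf1, Gtsf2, Pde1b, Ppp1r1a, Glycam1 and Mucl2 lie there too. Chromosome 10, also among the highest ratios, ends in Olfr826, Olfr827, Neurod4, Tespa1, Vmn2r84, Vmn2r85, Vmn2r86 and Vmn2r87. Among the last genes of chromosome 17 are Fshr and Lhcgr, receptors for gonadotropins. Near the end of chromosome 18 lies Cd226, an activating receptor of T and NK cells. Genes with a stated function were picked as examples, and no link between the kind of gene and peak density was tested.

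The density did not peak at the very end. In steps of 1 Mb from the end, the last 1 Mb held 13.9 ± 1.51 peaks per Mb in Cgas_KO and 12.6 ± 0.699 in WT, while the stretch from 2 to 3 Mb held 17.1 ± 0.241 in Cgas_KO and 15.9 ± 0.308 in WT (SD, n = 3 each). The next 5 Mb inward, from 5 to 10 Mb, was about as dense as the last 5 Mb. It held 15.4 ± 0.917 peaks per Mb in Cgas_KO and 14.7 ± 0.582 in WT (SD, n = 3 each). The last 5 Mb over that stretch gave 1.01, 1.03 and 1.04 in Cgas_KO and 0.951, 0.982 and 1.01 in WT, which went in both directions (two-sided exact sign-flip permutation p = 0.906, n = 6). From 10 to 15 Mb the density was lower, at 13.3 ± 0.851 in Cgas_KO and 12.4 ± 0.587 in WT, and from 20 to 25 Mb it stood at 15.8 ± 1.31 in Cgas_KO and 14.6 ± 0.214 in WT (SD, n = 3 each). A higher density than the mean of the rest was therefore not confined to the last 5 Mb.

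**Figure D3:**
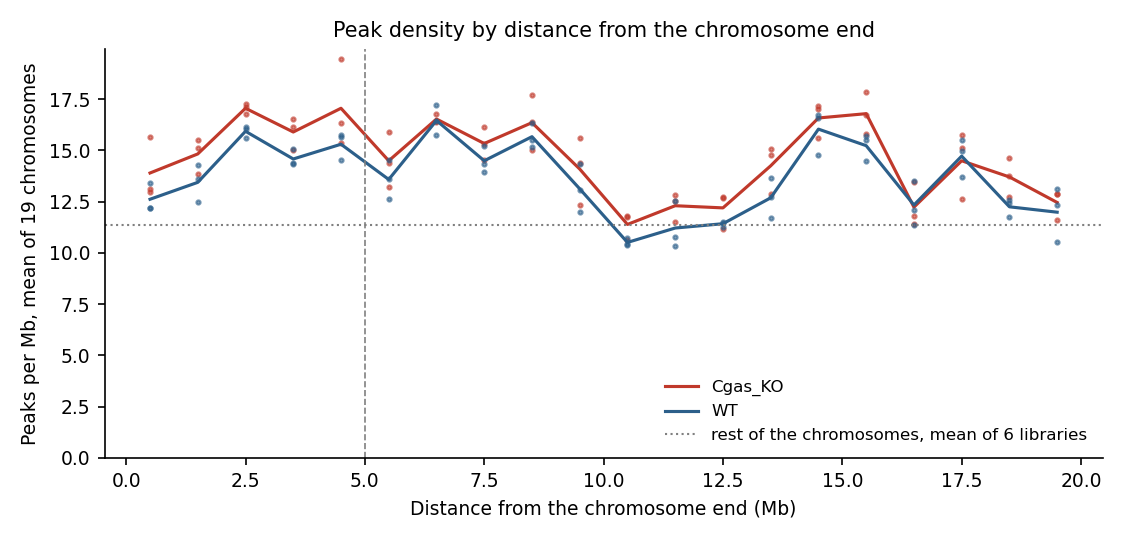
Peaks per Mb in 1 Mb steps of distance from the chromosome end, averaged over 19 chromosomes. Points are libraries, lines are means of 3 Cgas_KO (red) and 3 WT (blue) libraries, the dashed line is the 5 Mb limit and the dotted line the mean density of the rest. Density is lower in the last 1 Mb than between 2 and 5 Mb, and comparable from 5 to 10 Mb.

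Telomere-proximal peaks were shared among lists more often than those of the rest as a whole, though not more than in some stretches further inward. Of the peaks of a library in the last 5 Mb, 25.9%, 26.8% and 24.7% in Cgas_KO lay in regions called in all 6 lists, against 21.0%, 21.4% and 20.6% of peaks in the rest. In WT the shares were 27.4%, 26.3% and 27.3% in the last 5 Mb, against 21.9%, 21.2% and 22.2% in the rest. No library's share in the last 5 Mb overlapped those of the rest. The difference was 5.03 ± 0.509 percentage points (SD, n = 6; two-sided exact sign-flip permutation p = 0.0313, adjusted 0.0625). Counted as regions, 318 of 4224 (7.53%) were called in all 6 lists and 2710 (64.2%) in 1 list, against 4492 of 86270 (5.21%) and 60127 (69.7%) in the rest. Regions in all 6 lists numbered 3.35 per Mb near the telomere and 1.95 per Mb elsewhere. The difference shrank to 0.344 percentage points when the peaks of a list had to cover 50% of a region, and 38 telomere-proximal regions (0.900%) then remained in all 6 lists, against 552 (0.640%) in the rest. Density was also higher there, as given above, and its part in the sharing was not tested. By distance from the end, the share was 25.5% in Cgas_KO and 25.6% in WT from 5 to 10 Mb, and 25.8% in Cgas_KO and 26.9% in WT from 20 to 25 Mb (means of 3), close to the 25.8% in Cgas_KO and 27.0% in WT of the last 5 Mb.

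Lists resembled one another more in the last 5 Mb than in the rest as a whole. The Jaccard index, the length shared by 2 lists over the length covered by either, was higher there than in the rest for 15 of 15 pairs of lists. It averaged 0.168 in the last 5 Mb and 0.148 in the rest over the Cgas_KO pairs, 0.178 in the last 5 Mb and 0.156 in the rest over pairs of different genotype, and 0.195 in the last 5 Mb and 0.174 in the rest over the WT pairs. The pairs share libraries, so their number is not a number of replicates. The share of sequence covered by peaks was also higher in the last 5 Mb, and its part in the index was not tested. For stretches further inward the index was not computed.

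The peaks were not wider. Median widths in the last 5 Mb were 3068 ± 438 bp in Cgas_KO and 3394 ± 174 bp in WT, against 3115 ± 491 bp in Cgas_KO and 3460 ± 216 bp in WT in the rest (SD, n = 3 each). The difference was -56.8 ± 45.4 bp (SD, n = 6), narrower near the telomere in 5 libraries and wider by 17.5 bp in Cgas_KO replicate 3 (two-sided exact sign-flip permutation p = 0.0625, adjusted 0.0833). Regions in all 6 lists had a median width of 7311 bp near the telomere and 7350 bp elsewhere. The widest of them, chromosome 10 from 127495183 to 127522941, spanned 27759 bp, and the narrowest, chromosome 7 from 144894033 to 144895218, spanned 1186 bp.

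Peak height, the maximum signal of a peak over the median of its list, showed its difference in the tall peaks. The median height in the last 5 Mb was 1, 1.08 and 1 in Cgas_KO and 1.07, 1.08 and 1.15 in WT, against 1 in every Cgas_KO library and 1, 1 and 1.08 in WT in the rest (ratio 1.05 ± 0.0384, SD, n = 6; two-sided exact sign-flip permutation p = 0.125). Heights come in whole steps and the median peak is 11 to 14 steps high, so medians move coarsely. The mean log2 height, a finer summary chosen after the values were seen, was higher near the telomere in 6 of 6 libraries, by 0.11 ± 0.02 in Cgas_KO and 0.17 ± 0.02 in WT (SD, n = 3 each). Peaks at least 2 times the list median made up 10.3%, 13.6% and 9.58% of telomere-proximal peaks in Cgas_KO, against 7.60%, 9.58% and 6.48% in the rest. In WT they made up 22.02%, 18.0% and 22.8% of telomere-proximal peaks, against 15.4%, 12.6% and 17.1% in the rest. The share was higher near the telomere than in the rest in 6 of 6 libraries, by 1.42 ± 0.0616 times in Cgas_KO and 1.40 ± 0.0513 times in WT (SD, n = 3 each; two-sided exact sign-flip permutation p = 0.0313, adjusted 0.05 over all 8 measures tested). Stretches further inward came near it: tall peaks made up 11.2% in Cgas_KO and 21.0% in WT in the last 5 Mb, 8.90% in Cgas_KO and 16.2% in WT from 5 to 10 Mb, and 10.8% in Cgas_KO and 19.4% in WT from 20 to 25 Mb (means of 3). Tall peaks were fewer in Cgas_KO in both compartments. The signal of 1 step was also lower in Cgas_KO, at 0.117, 0.117 and 0.120 against 0.190, 0.212 and 0.195 in WT, and its part in this was not tested. By contrast, the enrichment of these tall peaks near the telomere differed between genotypes by less than the spread between replicates (exact permutation p = 0.7, n = 3 each). The gain in mean log2 height near the telomere was smaller in each Cgas_KO library than in any WT library (exact permutation p = 0.1, n = 3 each, adjusted 0.267 over all 8 measures). At 5 times the median the share was 1.89% ± 0.454 near the telomere and 0.914% ± 0.178 in the rest in Cgas_KO, and 4.57% ± 0.480 near the telomere and 2.26% ± 0.258 in the rest in WT (SD, n = 3 each). Near the telomere these were only 28, 33 and 23 peaks in Cgas_KO and 61, 58 and 68 in WT. In every library they included the 9 tall last regions of chromosomes described in the next paragraph. The share at this cut was not computed without those regions or for stretches further inward.

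On 9 of 19 chromosomes the very last region was a tall one seen in every library, with a median width of 2522 bp over the 9. For each chromosome the last merged region was taken, whatever its values. All 6 lists held a peak in 10 of these 19, against 7.53% of telomere-proximal regions as a whole. Of the other 9, 5 were called in 1 list, 3 in 2 lists and 1 in 5 lists. By construction this region touches the end of the sequence covered by the lists, while its height and its sharing were not part of the choice. Among the 10, all but that of chromosome 4 were 7.43 to 67.1 times the list median (geometric mean of the 6 lists) and 1186 to 7222 bp wide. They lay on chromosomes 1, 2, 3, 7, 9, 12, 14, 16 and 18. The median of the 10 was 9.82, 10.04 and 8.23 times the list median in Cgas_KO and 9.68, 10.6 and 11.04 times in WT. Of the 9 last regions called in fewer lists, 6 were only 0.643 to 1.69 times the list median (geometric mean of the lists that call them), and the median over all 19 was 5.87 times. The other 308 telomere-proximal regions in all 6 lists had medians of 1.79, 1.92 and 1.73 times in Cgas_KO and 2.29, 2.31 and 2.46 times in WT. These comparisons were made after the values were seen and carry no test. No control library is stated and no list of artefact-prone regions was used, so how far these heights reflect CTCF binding was not tested.

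**Figure D4:**
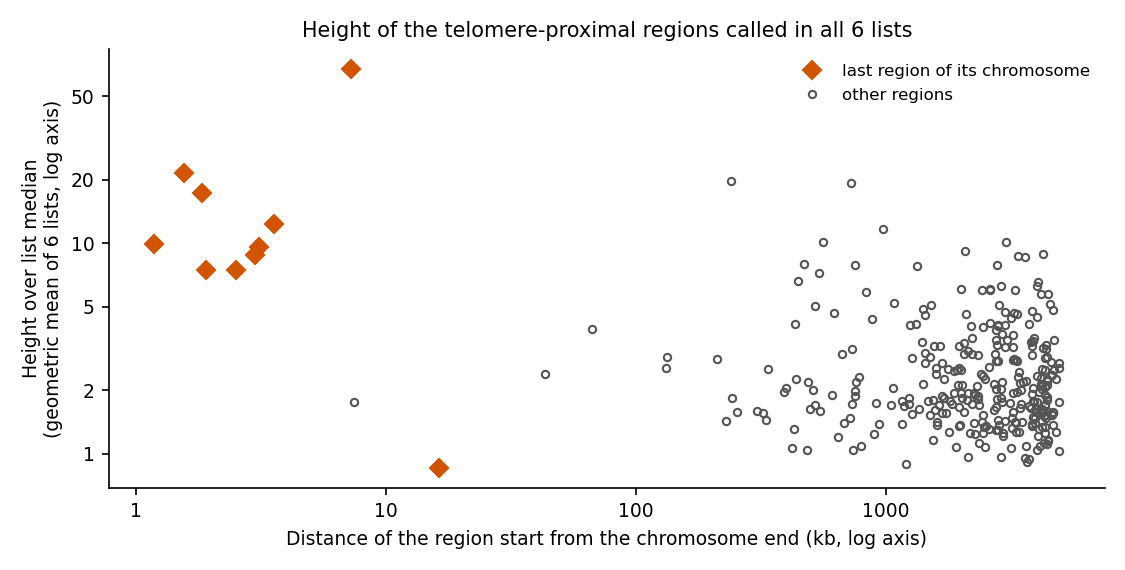
Height of the 318 telomere-proximal regions called in all 6 lists, as the geometric mean over lists of height over list median, against the distance of the region start from the chromosome end (both axes log). Orange diamonds are the last region of a chromosome and open circles the other regions. The distance of a diamond is the width of its region, because that region sets the chromosome end. All diamonds but 1 lie above 7 times the list median.

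The tallest region was the last one of chromosome 9, from 124252499 to 124259720. It was 58.1, 66.3 and 54.6 times the list median in Cgas_KO and 78.1, 71.2 and 78.3 times in WT, so the genotypes did not overlap. The last region of chromosome 14, from 125038127 to 125039677, was 20.6, 21.8 and 16.4 times the median in Cgas_KO and 22.7, 24.6 and 25 times in WT. That of chromosome 16, from 97907157 to 97908990, was 17.1, 17.4 and 13.5 times in Cgas_KO and 18.4, 18.2 and 20.2 times in WT. These too were lower in each Cgas_KO library than in any WT library. The last regions of chromosome 12, from 119989209 to 119992779, and of chromosome 7, named above as the narrowest and, of regions in all 6 lists, also the nearest to an end, complete the 5 last regions among the 10 tallest. They averaged 11.6 ± 1.80 and 9.22 ± 0.315 times in Cgas_KO and 13.2 ± 0.978 and 10.8 ± 0.973 times in WT (SD, n = 3 each). For a last region the distance of its start from the end is its own width, so being the nearest only restates being the narrowest.

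Of the 10 tallest regions, 9 lay within 1 Mb of the end and 4 were on chromosome 9. Lower relative height in Cgas_KO is common to the lists: among all 4810 regions called in all 6 lists, 33.8% were lower in each Cgas_KO list than in any WT list and 1.87% were higher in each. Among the 318 telomere-proximal ones 122 (38.4%) were lower and 10 (3.14%) higher. Of the 10 tallest, 5 were lower and 3 higher. Among the 3 higher ones, chromosome 9 from 124018586 to 124023669 was 20.9, 24.3 and 20.4 times the list median in Cgas_KO and 18.6, 16.5 and 18.2 times in WT. Chromosome 13 from 120057020 to 120081256 was 19.5, 22.7 and 21.0 times in Cgas_KO and 17.6, 17.3 and 17.8 times in WT. The third, on chromosome 9 from 123699764 to 123702717, was 11, 12.5 and 10 times in Cgas_KO and 9.14, 8.77 and 9.54 times in WT. The strongest drop among the 10 was at chromosome 10 from 127343224 to 127353648, at 7.36, 8.92 and 7.55 times in Cgas_KO and 13.4, 12.3 and 13.7 times in WT. None of these differences passed the test across all regions given below.

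**Figure D5:**
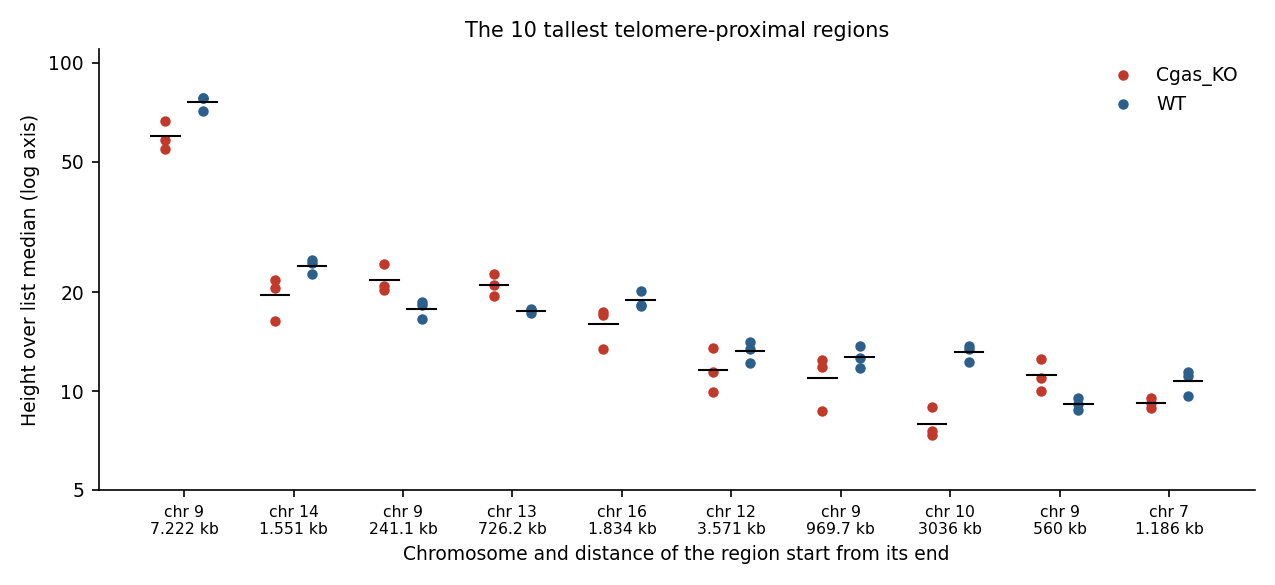
Height over list median (log axis) of the 10 tallest telomere-proximal regions called in all 6 lists, in 3 Cgas_KO libraries (red) left of 3 WT libraries (blue), with bars at the means, labelled by chromosome and distance of the start from the end. The tallest, at the end of chromosome 9, is 54.6 to 66.3 times the median in Cgas_KO and 71.2 to 78.3 times in WT, while another 2 regions of chromosome 9 and that of chromosome 13 are higher in Cgas_KO.

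Whether the genotypes differed at chromosome ends was asked first of density. The density ratio was 1.34, 1.33 and 1.34 in Cgas_KO and 1.3004, 1.305 and 1.32 in WT. The groups did not overlap, and the exact permutation p was 0.1, the smallest that 3 libraries against 3 allow, or 0.4 after adjustment over 4 measures. The log2 difference of 0.03 became -0.0030 with windows of 10 Mb. The share of a list's peaks that lay near the telomere was 5.22% ± 0.0218 in Cgas_KO and 5.11% ± 0.0431 in WT (SD, n = 3 each). The differences between genotypes in width, in median height and in sharing had exact permutation p of 0.5, 0.4 and 0.4. Of the measures added later, mean log2 height (given above) and covered length also did not overlap between genotypes. The ratio of covered length was 1.31 ± 0.0152 in Cgas_KO and 1.27 ± 0.00912 in WT (SD, n = 3 each; exact permutation p = 0.1, adjusted 0.267 over all 8 measures).

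Each window was then tested with limma on the log2 share of a list's peaks, over all 487 windows of 5 Mb counted from the chromosome ends. With Benjamini-Hochberg adjustment, 0 of the 19 telomere-proximal windows passed 0.05, against 0.616% of all windows. The lowest adjusted p among them was 0.287. At an unadjusted p under 0.05, limma gave 0 higher in Cgas_KO (4.72% of all windows) and 1 lower (6.98%). That window, at the end of chromosome 7, held 102, 88 and 110 peaks in Cgas_KO and 98, 122 and 103 in WT, from lists of different length, a log2 difference in the share of -0.21 (SE 0.09). Log2 differences ran from -0.21 to 0.24, above 0 in 15 windows and below it in 4, with a median of 0.05 against 0.01 in the other 468 windows. The groups did not overlap in 3 windows higher in Cgas_KO, against 7.8% of all windows, and in 1 lower, against 8.62%. The higher ones, chosen by that outcome, were on chromosomes 10, 13 and 16. Chromosome 10 had 106, 104 and 117 peaks in Cgas_KO and 92, 91 and 91 in WT (log2 difference 0.15, SE 0.09, limma adjusted p = 0.520).

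The strength of shared regions was tested with limma on normal scores of the rank of height within each library, over 4810 regions. Of the 318 telomere-proximal regions 0 passed an adjusted p of 0.05, against 0% of all regions. At an unadjusted p under 0.05, limma gave 20 of 318 higher in Cgas_KO (5.47% of all regions) and 14 lower (3.83%). On a log2 scale limma also called 0 of them (0.0208% of all regions), with 69 of 318 (21.7%) at an unadjusted p under 0.05, against 17.9% of all regions. The smallest p among regions lower in Cgas_KO was at chromosome 8 from 127915548 to 127920269, which was 13, 16 and 13 steps high in Cgas_KO and 28, 40 and 53 in WT (limma adjusted p = 0.312). It was followed by chromosome 15 from 103658105 to 103668671, at 14, 19 and 11 steps in Cgas_KO and 26, 31 and 33 in WT, and by chromosome 13 from 120450553 to 120459530, at 12, 18 and 10 steps in Cgas_KO and 29, 22 and 31 in WT (limma adjusted p = 0.387 for both). The first of these 2 was not lower when total signal was ranked in place of height.

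Among regions higher in Cgas_KO the smallest p was at the last region of chromosome 4, from 156567510 to 156583789, the low and wide exception among the last regions. It was 14, 15 and 10 steps high in Cgas_KO and 11, 9 and 9 in WT (limma adjusted p = 0.312). Over the list median this region was 1, 1.15 and 0.909 times in Cgas_KO and 0.786, 0.692 and 0.692 times in WT. More steps in Cgas_KO do not mean more deposited signal, because the signal of 1 step differs between lists. The last region of chromosome 4 ranked at percentile 8.64 ± 2.93 of the shared regions in Cgas_KO and 0.776 ± 0.577 in WT (SD, n = 3 each). The next were chromosome 9 from 119808093 to 119814884, at 17, 19 and 15 steps in Cgas_KO and 15, 11 and 14 in WT (limma adjusted p = 0.312; difference 1.02 normal scores by height but 0.03 by total signal), and the chromosome 9 region at 123699764 described above, at 154, 163 and 110 steps in Cgas_KO and 128, 114 and 124 in WT (limma adjusted p = 0.353).

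Regions called in 3 of 3 lists of 1 genotype and in 0 of the other were rare both near telomeres and over all regions. There were 15 Cgas_KO-only regions (0.355% of telomere-proximal regions, against 0.338% of all regions) and 10 WT-only regions (0.237%, against 0.382% of all regions). Presence in lists was not tested for single regions, where an exact permutation test of 3 libraries against 3 cannot go below p = 0.1. They were of ordinary strength, with a median percentile of total signal within their lists of 53.5 for the Cgas_KO-only and 52.1 for the WT-only regions. The leading Cgas_KO-only regions were chromosome 8 from 127391794 to 127396668 at percentile 83.5 ± 7.11, then one of chromosome 16 from 94384138 to 94394735 at 83.2 ± 7.31, and one of chromosome 19 from 56806251 to 56812784 at 79.9 ± 11.7 (SD, n = 3 each). Chromosome 14 from 121582177 to 121589458 and chromosome 9 from 121946799 to 121951215 followed at 70.4 ± 14.8 and 63.1 ± 15.7.

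The leading WT-only regions ranked lower. The first, chromosome 8 from 127411724 to 127418255 at percentile 64.7 ± 17.6 (SD, n = 3), lies distal to the first Cgas_KO-only region, which ends at 127396668. It was 10, 13 and 14 steps high in WT, while the Cgas_KO-only neighbour was 12, 21 and 14 steps high in Cgas_KO. The tallest of the 5 was chromosome 6 from 145305112 to 145308077, at 41, 42 and 46 steps in WT (percentile 60.7 ± 25.2, SD, n = 3), well above the median peak, with no peak in any Cgas_KO list. The others lay on chromosome 9 (120018895 to 120022378), chromosome 10 (127771760 to 127775112) and chromosome 8 (125550083 to 125556601), at percentiles of 61.9 ± 13.6, 55.9 ± 12.7 and 53.5 ± 41.3 (SD, n = 3 each).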

How the data were processed

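CTCF CUT&RUN peak lists, 1 per library, came from 3 Cgas_KO and 3 WT libraries by their labelled genotype. The submitters' processing notes name Bowtie2 and SEACR 1.3, and nothing on threshold, control library or scaling is stated there. Each deposited peak carries its total and its maximum signal. Below 200 steps, 100% of maxima were whole multiples of a smallest unit particular to the list (tolerance 0.01), called a step here, whose meaning is unknown. The notes name mm10 and mm39, and the lists carry sequence names of mm39. Counting intervals were not computed for want of read depth. No list of artefact-prone regions was used here.

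The rest of a chromosome ran from the smallest start in any list, at 3.00 to 3.17 Mb, to the window, 2307 Mb in all against 95 Mb of windows. Values within a library were compared by exact sign-flip tests over 6 libraries, and genotypes by exact permutation of 3 against 3. Windows with a mean of at least 10 peaks (pseudocount 0.5) and regions in all 6 lists were tested with limma 3.58.1 (R 4.3.3), Benjamini-Hochberg threshold 0.05, after a check on simulated data. Python 3.11.15 with pandas 2.3.3 and numpy 2.4.6 did the rest, and matplotlib 3.10.9 the figures.

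Named regions followed a rule: the 3 highest and lowest chromosomes by density ratio, the 10 tallest regions, 5 leading regions of 1 genotype each, 3 smallest limma p in each direction, and the widest, narrowest and distal-most region. The set and the rule were chosen with earlier results of these data known. Last regions, tall peaks, mean log2 height, covered length and the next 5 Mb were added after the values were seen. Alternatives were other windows, rests, thresholds, merging, placement and scales, each library left out in turn, and a block for the replicate number. The share of regions at transcription starts was not run.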

Additional observations from a re-analysis of the deposited data

Results flagged for a closer look

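Chromosome X entered no comparison, and its end also held signal. Its last 5 Mb held 40, 46 and 49 peaks in Cgas_KO and 38, 47 and 31 in WT, so at least 31 in each list, with a density ratio to the rest of the chromosome of 1.42 ± 0.130 in Cgas_KO and 1.17 ± 0.215 in WT (SD, n = 3 each). In the last 1 Mb, 7, 5 and 6 peaks in Cgas_KO and 5, 4 and 5 in WT, so at least 4 in each list, were at least 5 times the list median, against 2, 1 and 1 in Cgas_KO and 2, 3 and 3 in WT over all the rest of the chromosome outside the last 5 Mb. The highest was 15.1, 16.8 and 15.8 times the median in Cgas_KO and 21.8, 21.2 and 22.2 times in WT. These values were singled out because they lie in data not otherwise used.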

How the results depend on the processing

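No measure within a library passed an adjusted p of 0.05 as planned, and signs held in all alternatives of the 4 measures. With the top 50% of each list, density (log2 ratio 0.55), width (-117 bp) and sharing (3.84 points) passed, at adjusted p = 0.0417 by exact sign-flip permutation. Width (-66.3 bp) and sharing (4.79 points) passed with lists matched to the shortest, while median height did not (log2 ratio 0.05). With the full lists, mean log2 height (0.14) passed when it took the place of median height. In each of these settings more measures reached the smallest p, which lowered the adjusted one. Leaving out a library gave log2 density ratios of 0.40 to 0.41, widths of -71.5 to -49.3 bp, height ratios of 0.06 to 0.08 (log2) and sharing of 4.37 to 5.21 points, where the exact test on 5 libraries cannot go below p = 0.0625. Among genotype differences, density reversed with 10 Mb windows (log2 -0.0030), as did sharing (0.155 points). Width reversed with 2 Mb windows (-20.7 bp) and without Cgas_KO replicate 3, and ran from -13.8 to 41.3 bp with a library left out. The cause was not tested. Telomere-proximal limma calls stayed at 0 in all alternatives of both tables, with 0 to 3 windows (0 to 15.8%, against 9.83 to 14.3% of the other windows) and 5 to 69 regions (6.34 to 21.7%, against 6.59 to 17.7% of the rest) at an unadjusted p under 0.05. The chromosome 15 region at 103658105 reversed with total signal (0.43 normal scores), and that of chromosome 9 at 119808093 moved to 0.03. At 50% coverage there were 10 Cgas_KO-only (0.237%, rest 0.213%) and 16 WT-only regions (0.379%, rest 0.391%), the reverse of the main order. With the top 50% of each list there were 12 (0.564%, rest 0.373%) and 11 (0.517%, rest 0.492%). Cgas_KO-only and WT-only regions numbered 152 (3.598%, rest 3.28%) and 117 (2.77%, rest 3.03%) with 2 of 3 lists, 2 (0.127%, rest 0.342%) and 1 (0.0637%, rest 0.388%) in 2 Mb windows, and 29 (0.347%, rest 0.337%) and 25 (0.299%, rest 0.391%) in 10 Mb windows. With a library left out, which eases the requirement, they numbered 26 to 67 (0.664 to 1.75%, rest 0.610 to 1.56%) and 26 to 56 (0.677 to 1.43%, rest 0.811 to 1.45%). With the replicate number as a block, the log2 density difference was 0.03 (exact sign-flip permutation p = 0.25, the smallest for 3 pairs), and limma gave 1 window (5.26%, other windows 10.9%) and 26 telomere-proximal regions (8.18%, rest 8.62%) at an unadjusted p under 0.05. Libraries of the same number did not deviate together (correlations -0.07 to 0.04 over windows). With 3 libraries per genotype this cannot decide whether the numbers pair libraries, which the labels do not say.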
